A study of Homo sapiens with 4 samples.

Results

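The HOX genes of FT190 cells were examined in RNA-seq libraries of cells with an shRNA against SMARCA4 and of control cells. They were taken as every protein-coding gene of the count table whose symbol is HOX followed by a cluster letter from A to D and a number. This gave 39 genes of 63241 in the table, of which 20073 are protein-coding: 11 HOXA genes on chromosome 7, 10 HOXB genes on chromosome 17, 9 HOXC genes on chromosome 12 and 9 HOXD genes on chromosome 2. FT190 is an immortalized line derived from secretory epithelium of the human fallopian tube, which the labels class as an ovarian epithelial cell. Both shSMARCA4 libraries carry 1 hairpin, labelled sh1, and both control libraries carry PLKO, a lentiviral hairpin vector for which the labels name no insert. All 4 libraries are from the wild-type line in serum-containing medium, and no time after infection or selection is given. The labels do not say whether the 2 libraries of a group came from separate cultures, so any p-value reflects the spread of these 4 libraries and that spread could be technical.

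HOX genes encode homeodomain transcription factors that set position along the body axis. Within a cluster the genes lie in the order of their paralog groups, with group 1 at the 3′ end and group 13 at the 5′ end, and in embryos the 3′ genes act earlier and more anteriorly than the 5′ genes. The combination that a cell keeps on is called its HOX code. In the mouse Müllerian duct, Hoxa9 is known from the oviduct, Hoxa10 from the uterus, Hoxa11 from the uterus and cervix and Hoxa13 from the vagina. SMARCA4 (BRG1) is an ATPase of the BAF chromatin remodelling complex. Its Drosophila counterpart, brahma, was found through its genetic opposition to Polycomb at homeotic genes.

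SMARCA4 itself had 985 and 1003 counts in the shSMARCA4 libraries, against 5605 and 5240 in the control libraries. Its transcript fell by 2.24 ± 0.052 on the log2 scale (SE; quasi-likelihood test in edgeR, Benjamini-Hochberg adjusted p = 1.86e-07). The shSMARCA4 libraries held 28536665 and 27137414 counts and the control libraries 33641343 and 32618516. A count of 0 allows up to 3 counts, which is 0.104 to 0.109 CPM (counts per 1e+06 of the scaled library total) in shSMARCA4 libraries and 0.0915 to 0.093 CPM in control libraries, for counting error only. The control libraries differed from each other more than the shSMARCA4 libraries did, with a chi-square per degree of freedom over genes of 6.33, against 1.88 between the shSMARCA4 libraries. In bulk RNA, fewer cells with a transcript and less transcript per cell cannot be told apart.

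FT190 cells expressed the 3′ and middle parts of the HOXA and HOXB clusters and most of HOXC, and were near 0 across HOXD. A mean of at least 1 CPM over the 4 libraries was reached by 22 of the 39 genes: 8 of 11 in HOXA, 7 of 10 in HOXB, 7 of 9 in HOXC and none of the 9 in HOXD. By paralog group, 8 of 12 genes of groups 1 to 4 reached it, 9 of 11 of groups 5 to 8 and 5 of 16 of groups 9 to 13. HOXC11 at 1.17 and HOXA6 at 1.11 CPM lay just inside this limit, and HOXA11 at 0.754 CPM just outside it. HOXC5, at 1.29 CPM, shares 1081 exon bases with a long non-coding RNA on the same strand, which had 1.11 CPM. HOXA4, at 9.48 CPM, shares 541 exon bases with another on its strand, which had 6.17 CPM. HOXA6 shares 105 exon bases with the antisense HOXA-AS3, which had 9.07 CPM. Reads in shared bases cannot be told apart, so the levels of HOXC5, HOXA4 and HOXA6 may be partly those of the other transcript. The place of HOXA6 above the limit is therefore uncertain.

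Levels of different genes were compared per length of the counted transcript, as CPM per kilobase (RPKM). HOXB7 had the highest level, with 20.05 and 19.2 RPKM in shSMARCA4 libraries, against 18.9 and 19.2 RPKM in control libraries. HOXB2 followed with 15.3 and 15.8 RPKM in shSMARCA4 libraries, against 11.5 and 11.1 RPKM in control libraries. HOXA5 reached 7.56 and 6.58 RPKM in shSMARCA4 libraries, against 10.3 and 12.8 RPKM in control libraries. HOXA5 and HOXB2 thus overlapped in the control libraries and were separate in the shSMARCA4 libraries, where HOXB2 was higher. HOXA3 averaged 7.15 ± 0.22 RPKM in shSMARCA4 cells and 8.82 ± 1.21 RPKM in control cells (SD, n = 2 each). A block of HOXA7, HOXA2, HOXA4, HOXB4 and HOXA10, with control means of 5.13 to 5.66 RPKM, was not fully ordered, since each gene overlapped its neighbour in the control libraries. HOXA7 lay above HOXB4 and HOXA10 in both, but it shares 1507 exon bases with the antisense HOXA-AS3. Reads there cannot be told apart, and HOXA-AS3 averaged 9.35 CPM in control libraries, against 11.4 CPM for HOXA7, so the place of HOXA7 is uncertain. Of the 21 neighbouring pairs in the control order, 9 overlapped in the control libraries. HOXC4 led its cluster with 3.87 and 4.21 RPKM in shSMARCA4 libraries, against 4.49 and 4.16 RPKM in control libraries. HOXC11 was the lowest of the 22 at 0.353 ± 0.020 RPKM in shSMARCA4 cells and 0.364 ± 0.158 RPKM in control cells (SD, n = 2 each).

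**Figure D1:**
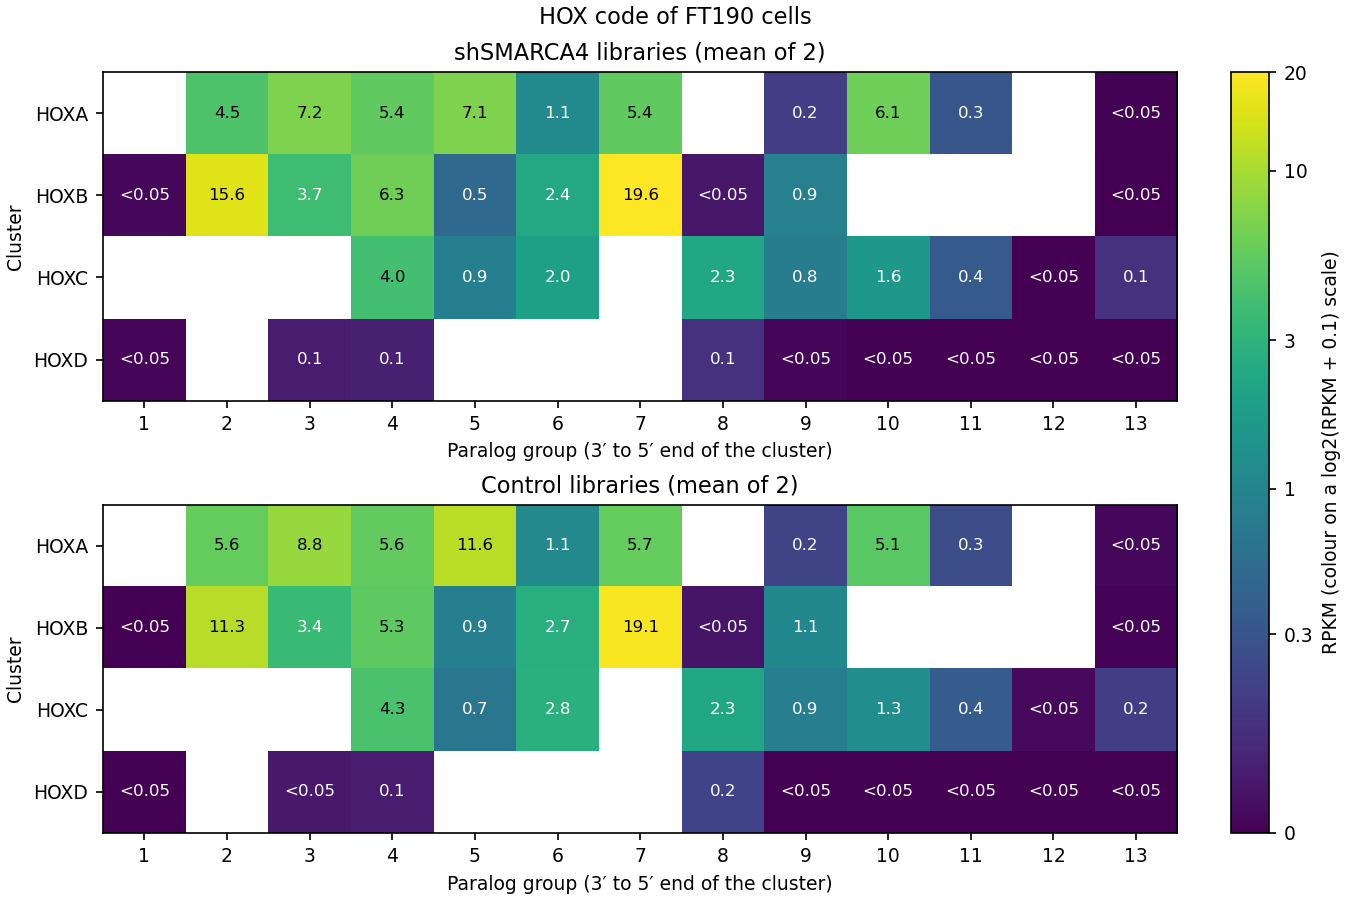
Mean level of 38 of the 39 HOX genes in RPKM, with clusters as rows and paralog groups as columns, for shSMARCA4 libraries (upper panel) and control libraries (lower panel), 2 each. Blank cells are paralog groups that the cluster lacks or whose gene is not reported here, and colour follows log2(RPKM + 0.1); HOXB7 stands at 19.6 RPKM in shSMARCA4 cells and 19.1 RPKM in control cells, while the HOXD row is dark in both panels.

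The Abdominal-B type genes, paralog groups 9 to 13, were mostly low. HOXA10, the uterine gene of the mouse series, was the exception, with 15.3 and 15.9 CPM in shSMARCA4 libraries, against 11.9 and 14.1 CPM in control libraries. Per length it averaged 6.14 RPKM in shSMARCA4 cells and 5.13 RPKM in control cells. Its counted transcript shares 608 exon bases with the antisense HOXA10-AS, where reads of both genes cannot be told apart. HOXA10-AS had 5.32 and 5.98 CPM in shSMARCA4 libraries, against 4.82 and 5.58 CPM in control libraries. HOXA9, the oviduct gene, had 8 and 11 counts in shSMARCA4 libraries, against 11 and 15 in control libraries, or a mean of 0.164 RPKM in shSMARCA4 cells and 0.194 RPKM in control cells. HOXA11 had 20 and 27 counts in shSMARCA4 libraries, against 29 and 15 in control libraries, or a mean of 0.313 RPKM in shSMARCA4 cells and 0.253 RPKM in control cells. HOXA11 shares 546 exon bases with the antisense HOXA11-AS. Both neighbours of HOXA10 were thus far below it per length, and each overlapped between the groups. HOXA13 had 0 and 1 counts in shSMARCA4 libraries, against 1 and 3 in control libraries. HOXA13 thus lay at or under the 3 counts that a count of 0 allows in each library.

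The other genes under 1 CPM were HOXB1, HOXB8, HOXB13, HOXC12, HOXC13 and all 9 HOXD genes. HOXB8 sits between 2 expressed genes, HOXB7 and HOXB9, yet had 3 and 2 counts in shSMARCA4 libraries, against 3 and 2 in control libraries. HOXD8 was the highest of its cluster with 8 and 9 counts in shSMARCA4 libraries, against 15 and 17 in control libraries. HOXD10, HOXD11, HOXD12 and HOXD13 had a count of 0 in each of the 4 libraries, and HOXB1, HOXB13, HOXD1 and HOXD9 had 1 count in 1 library. HOXC13, at the 5′ end of its cluster, had 7 and 8 counts in shSMARCA4 libraries, against 11 and 15 in control libraries. HOXC12 had 0 counts in both shSMARCA4 libraries, against 1 and 2 in control libraries. HOXD3 and HOXD4 had 1 to 3 counts per library.

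Promoter sequence was compared between HOX genes that were on and off in this line. RefSeq promoter windows (GRCh38.p14, 250 bases before to 50 after a gene's start) were held for 20 of the 39 genes, 8 of them at 1 CPM or more. The CCAAT box, searched as CCAAT on both strands (ATTGG on the other), was present for 17 of these 20 genes, or in 16 of 19 distinct windows, while 34.6% of all 35116 promoters held it. HOXC4 and HOXC5 share the same window, which lies 16162 bases or more from their counted starts, and the windows of HOXD3 and HOXD10 lie 20695 and 7988 bases from theirs. The sequences below are shown because they carry this box in 3 expressed HOXA genes and in HOXD13, which had no counts. They are chr7:27152534-27152833, chr7:27156626-27156925 and chr7:27174271-27174570 on the minus strand for HOXA3, HOXA7 and HOXA10, and chr2:176092471-176092770 on the plus strand for HOXD13. Capitals mark the CCAAT box on either strand.
HOXA3: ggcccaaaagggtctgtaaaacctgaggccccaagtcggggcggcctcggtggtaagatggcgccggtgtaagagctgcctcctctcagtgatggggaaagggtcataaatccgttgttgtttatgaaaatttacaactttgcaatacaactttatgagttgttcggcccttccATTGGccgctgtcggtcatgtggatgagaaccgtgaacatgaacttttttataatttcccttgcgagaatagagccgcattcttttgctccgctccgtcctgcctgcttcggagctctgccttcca
HOXA7: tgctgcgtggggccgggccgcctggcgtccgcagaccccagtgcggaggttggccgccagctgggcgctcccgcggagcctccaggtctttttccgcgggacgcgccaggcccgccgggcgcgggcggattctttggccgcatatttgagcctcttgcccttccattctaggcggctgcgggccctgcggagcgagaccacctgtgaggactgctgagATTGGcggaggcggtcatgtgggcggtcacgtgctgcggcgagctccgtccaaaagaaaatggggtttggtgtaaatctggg
HOXA10: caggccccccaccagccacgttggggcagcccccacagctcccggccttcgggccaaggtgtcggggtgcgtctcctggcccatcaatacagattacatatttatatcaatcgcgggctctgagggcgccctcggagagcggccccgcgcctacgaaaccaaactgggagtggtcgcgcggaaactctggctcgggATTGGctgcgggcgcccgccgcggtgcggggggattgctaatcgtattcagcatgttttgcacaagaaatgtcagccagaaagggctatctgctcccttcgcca
HOXD13: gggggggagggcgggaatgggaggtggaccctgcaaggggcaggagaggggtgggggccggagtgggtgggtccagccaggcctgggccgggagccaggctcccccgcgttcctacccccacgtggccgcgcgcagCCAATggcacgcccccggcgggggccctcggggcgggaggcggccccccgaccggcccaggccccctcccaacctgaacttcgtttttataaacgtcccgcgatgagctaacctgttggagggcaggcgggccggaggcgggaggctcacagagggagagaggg
The box began 76, 32 and 54 bases before the RefSeq start in HOXA3, HOXA7 and HOXA10 and 114 bases before it in HOXD13. Each of the 8 genes at 1 CPM or more had the box. Of the 12 genes under 1 CPM, all but HOXA11, HOXD8 and HOXD11 had it. This difference was not tested. CpG dinucleotides numbered 11 to 31 (median 20) over the 8 genes at 1 CPM or more. They numbered 4 to 44 (median 23.5) over the other 12 genes, against a median of 14 over all promoters. The window shared by HOXC4 and HOXC5 held 15 and was counted for both genes, so the median of 20 includes that repeat. The order of the medians of 20 and 23.5 is therefore not read as a difference. The PBX-HOX composite TGATTNAT was found in HOXA2 and HOXD11 alone (2.82% of all promoters). TAATTA was found in HOXD3 and HOXD11 (4.84%), and TATAAA in HOXA3, HOXA9, HOXA10 and HOXD13 (11.5%). Both strands were searched for each, and a match on either strand was enough. The retinoid receptor half-site AGGTCA was in none of the 20 windows and in 13.8% of all promoters. A match describes letters and is not a measured binding site.

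The comparison of shSMARCA4 with control asked how HOX expression differed where SMARCA4 RNA was lowered, though not absent. HOXB2 rose, and HOXA3, HOXA5, HOXB5 and HOXC6 fell, while 20 of the 25 tested HOX genes did not pass the test (edgeR's quasi-likelihood test, Benjamini-Hochberg adjusted p under 0.05 over the 18781 genes tested). Among all genes tested 29.7% passed, 13.8% as higher and 15.8% as lower, against 1 higher and 4 lower (20%) of 25 HOX genes. Among the 11090 genes between the lowest and highest mean level of a tested HOX gene, 0.369 to 26.3 CPM, 21.6% passed, 9.85% as higher and 11.7% as lower. The share of HOX genes called was therefore near the background. Their median log2 fold change was -0.04, beside -0.005 over all genes tested, with 11 members above 0 and 14 below it. The 2 groups did not overlap in 14 of the 25, with shSMARCA4 above control in 6 and below it in 8, while 65.9% of all genes tested did not overlap, 32.4% with shSMARCA4 above and 33.5% with it below. With library totals in place of scaling factors the HOX calls were 4 higher and 3 lower, where 19.3% of all genes tested were called higher and 13.1% lower. With RLE factors they were 2 and 4 (14.2% and 15.6% of all genes), with upper-quartile factors 3 and 4 (15.7% and 15.3%), and among protein-coding genes alone 3 and 4 (18.4% and 19.3%). DESeq2 called 1 HOX gene higher and 1 lower (10% and 11.9% of all genes), as did a fit with no filter on low counts (4% and 5.08%) and a test against 1.2-fold (3.42% and 5.68%). Single libraries moved the counts as well. The HOX calls were 2 higher and 1 lower without shSMARCA4 library 1 (8.77% and 10.6% of all genes) and 1 and 3 without shSMARCA4 library 2 (9.11% and 11.5%). They were 3 and 5 without control library 1 (18.7% and 19.8%) and 3 and 3 without control library 2 (16.2% and 18.3%).

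**Figure D2:**
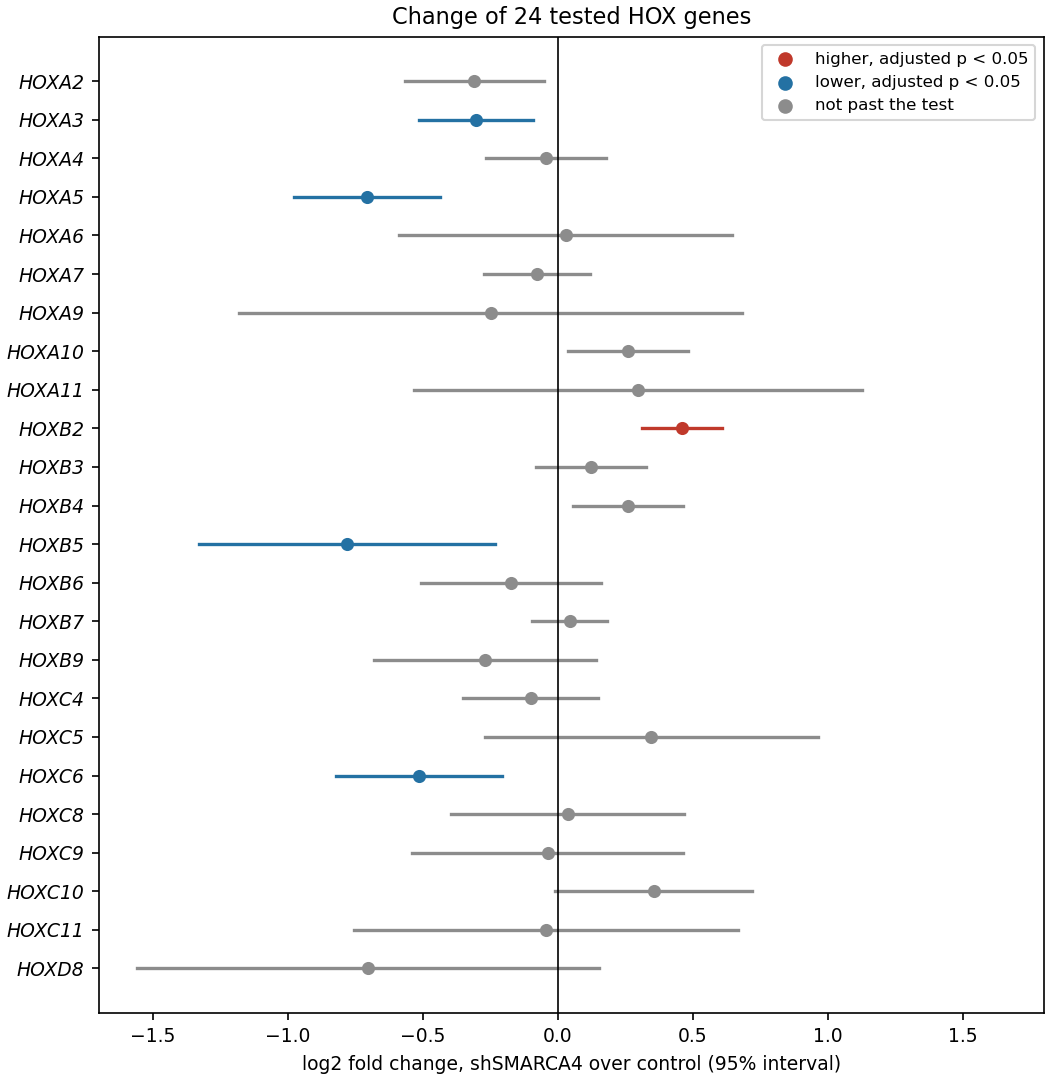
Log2 fold change of shSMARCA4 over control for 24 of the 25 tested HOX genes in order of cluster and paralog group, with 95% intervals from edgeR's quasi-likelihood fit. HOXB2 is the red point at 0.46, and HOXA3, HOXA5, HOXB5 and HOXC6 are the blue points between -0.30 and -0.78; the widest intervals belong to genes with few counts such as HOXA9.

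HOXA5, known for its part in lung and mammary epithelial development, showed the clearest fall. The counted transcript lies at chr7:27141052-27143681 (hg38, minus strand) and shares no exon bases with another gene in GENCODE 29, the release used here for exons. It had 12.6 and 10.98 CPM in shSMARCA4 libraries, against 17.1 and 21.4 CPM in control libraries. Both shSMARCA4 libraries were below both control libraries, and the control libraries were further apart. HOXA5 fell by 0.71 ± 0.12 on the log2 scale (SE; 95% interval -0.98 to -0.44; edgeR's quasi-likelihood adjusted p = 0.0023), or fell by 38.7%. It passed the test under each of 14 other settings, with log2 fold changes from -0.85 to -0.54.

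HOXA3, needed in mice for the thymus and parathyroid glands, fell less. The transcript counted for it is long (chr7:27107010-27152583, minus strand), so that its start lies between HOXA6 and HOXA7. By the exons of GENCODE 29 it shares 84 bases with the counted transcript of the antisense HOXA-AS2. That release gives the HOXA3 transcript 3396 exon bases, against a counted length of 3015, so the bases shared in the counts may differ. It had 21.1 and 22.0 CPM in shSMARCA4 libraries, against 24.02 and 29.2 CPM in control libraries. The shSMARCA4 libraries were close together and below both control libraries. HOXA3 fell by 0.30 ± 0.093 on the log2 scale (SE; edgeR's quasi-likelihood adjusted p = 0.0367). The call depended on single libraries and on the settings. The log2 fold change was -0.16 without control library 2 (adjusted p = 0.0977, edgeR's quasi-likelihood test) and -0.26 without shSMARCA4 library 1 (adjusted p = 0.0802). DESeq2 gave an adjusted p of 0.0608, and the call was also lost with library totals alone (-0.25; adjusted p = 0.0668, edgeR's quasi-likelihood test), with no filter (adjusted p = 0.15) and against 1.2-fold (adjusted p = 0.565).

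HOXC6, a gene of the thoracic HOX code, lies at chr12:54028440-54030823 (plus strand) and shares no exon bases with another gene. It had 3.24 and 3.19 CPM in shSMARCA4 libraries, against 4.45 and 4.74 CPM in control libraries. The 2 groups were well apart and each pair of libraries was close. HOXC6 fell by 0.51 ± 0.14 on the log2 scale (SE; edgeR's quasi-likelihood adjusted p = 0.0199), or fell by 29.98%. Its log2 fold change was -0.52 without shSMARCA4 library 1 (adjusted p = 0.0753, edgeR's quasi-likelihood test) and -0.50 without shSMARCA4 library 2 (adjusted p = 0.0779), and DESeq2 gave an adjusted p of 0.126.

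HOXB5, known from enteric neural crest and endothelium, was a low gene at chr17:48591257-48593779 (minus strand) that overlaps an exon of the antisense HOXB-AS3, though not of the transcript counted for it. It had 23 and 31 counts in shSMARCA4 libraries, against 54 and 53 in control libraries, or 0.79 and 1.12 CPM against 1.65 and 1.64 CPM. The groups did not overlap, and the shSMARCA4 libraries were further apart than the control libraries. HOXB5 fell by 0.78 ± 0.24 on the log2 scale (SE; 95% interval -1.33 to -0.23; edgeR's quasi-likelihood adjusted p = 0.0381). Without shSMARCA4 library 1 the log2 fold change was -0.54 (adjusted p = 0.294, edgeR's quasi-likelihood test), and DESeq2 gave an adjusted p of 0.199.

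HOXB2, which acts in hindbrain segment identity, was the single HOX gene past the test as higher. It lies at chr17:48542655-48545109 (minus strand) and overlaps an exon of the antisense HOXB-AS1, though not of the transcript counted for it. It had 25.7 and 26.5 CPM in shSMARCA4 libraries, against 19.3 and 18.7 CPM in control libraries. The 2 groups were well separated and both were tight. HOXB2 rose by 0.46 ± 0.065 on the log2 scale (SE; 95% interval 0.31 to 0.61; edgeR's quasi-likelihood adjusted p = 0.000917), or 37.6%. It passed the test under each of 14 other settings, with log2 fold changes from 0.44 to 0.51. HOXB-AS1 had 3.80 and 3.77 CPM in shSMARCA4 libraries, against 3.26 and 3.47 CPM in control libraries, and did not pass the test (log2 fold change 0.17 ± 0.14, SE).

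**Figure D3:**
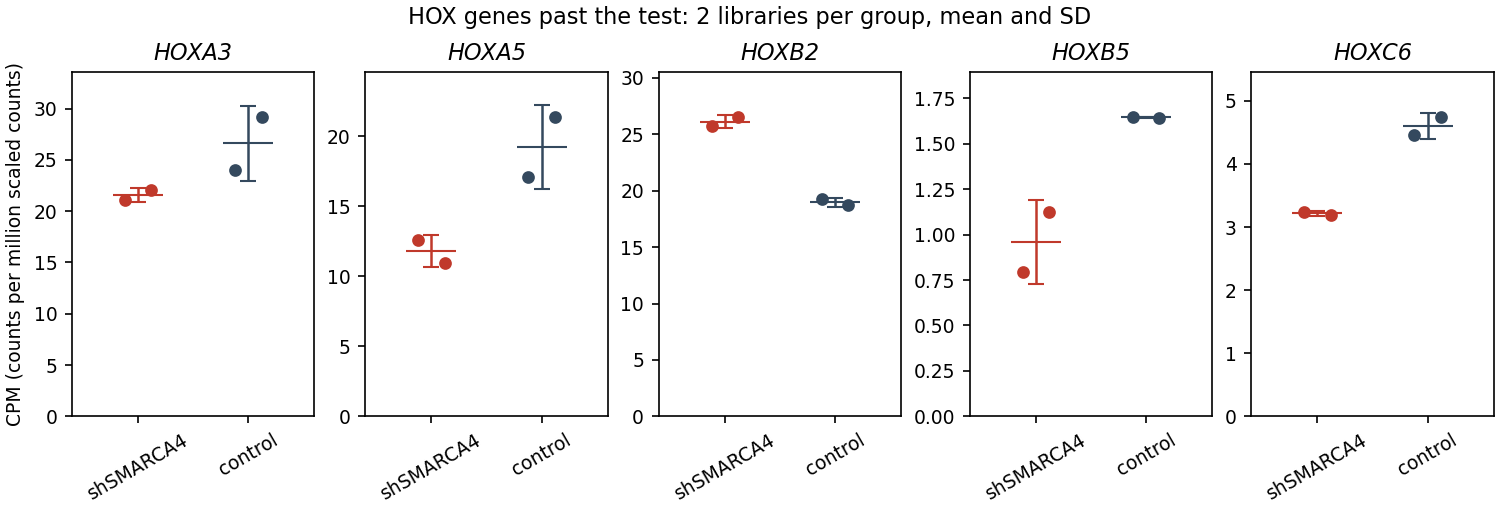
CPM of the 5 HOX genes past the test in each library, with shSMARCA4 libraries in red on the left and control libraries in dark blue on the right of each panel; points are libraries, and bars are the mean and SD of 2. HOXA3, HOXA5, HOXB5 and HOXC6 are lower in both shSMARCA4 libraries than in both control libraries, and HOXB2 is higher in both.

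The other abundant members, those with a mean of at least 10 CPM, did not pass the test. HOXB7, a gene linked to growth factor expression in tumours, had 27.3 and 26.2 CPM in shSMARCA4 libraries, against 25.7 and 26.1 CPM in control libraries. Its log2 fold change of 0.04 had a 95% interval of -0.09 to 0.18, the narrowest of the HOX genes together with that of HOXB2. HOXA7 had 10.7 and 10.9 CPM in shSMARCA4 libraries, against 11.2 and 11.6 CPM in control libraries, with an interval of -0.27 to 0.12, and its transcript shares 1507 exon bases with the antisense HOXA-AS3. HOXB3 had 15.2 and 16.4 CPM in shSMARCA4 libraries, against 13.6 and 15.3 CPM in control libraries, and its groups overlapped.

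HOXB4 and HOXA10 lay close to the threshold, each with both shSMARCA4 libraries above both control libraries. HOXB4, known for expanding blood stem cells, had 12.3 and 12.9 CPM in shSMARCA4 libraries, against 10.8 and 10.2 CPM in control libraries (log2 fold change 0.26 ± 0.089, SE; adjusted p = 0.0559, edgeR's quasi-likelihood test). HOXA10 differed by 0.26 ± 0.098 on the log2 scale (SE; adjusted p = 0.077, edgeR's quasi-likelihood test). Their calls moved with single libraries and with scaling. HOXB4 passed without control library 1 (0.31; adjusted p = 0.0121, edgeR's quasi-likelihood test) and HOXA10 without control library 2 (0.39; adjusted p = 0.000352).

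HOXA2, which patterns the second pharyngeal arch, was close to the threshold on the lower side. It had 7.97 and 7.21 CPM in shSMARCA4 libraries, against 8.75 and 10.1 CPM in control libraries, with no overlap. Its log2 fold change was -0.31 ± 0.11 (SE; edgeR's quasi-likelihood adjusted p = 0.0705), and -0.40 without control library 1, where it passed the test (adjusted p = 0.00244).

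The remaining tested genes had means under 10 CPM. HOXC4 had 6.59 and 7.17 CPM in shSMARCA4 libraries, against 7.65 and 7.10 CPM in control libraries, and the groups overlapped. HOXC10 had 2.93 and 3.41 CPM in shSMARCA4 libraries, against 2.44 and 2.51 CPM in control libraries (log2 fold change 0.35 ± 0.16, SE; edgeR's quasi-likelihood adjusted p = 0.132). HOXD8 had a log2 fold change of -0.70 ± 0.38 (SE), with an interval of -1.56 to 0.15. HOXC8 varied more between libraries of 1 group than between groups, with 6.56 and 4.60 CPM in shSMARCA4 libraries, against 6.22 and 4.68 CPM in control libraries. HOXA4, HOXA6, HOXA9, HOXA11, HOXB6, HOXB9, HOXC5, HOXC9 and HOXC11 had log2 fold changes between -0.27 and 0.35, none past the test. HOXA4, HOXC9 and HOXC11 differed in sign between the main scaling and library totals alone, with fold changes near 0 in both. A p that misses the threshold does not show that these genes were unchanged, and the intervals of HOXA9 and HOXA11 reach beyond a log2 fold change of 1 in 1 direction each.

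By position, the members past the test lay in the middle and 3′ parts of the clusters. Beside the 29.7% of all genes tested that passed, and the 21.6% at HOX levels, the shares by position rest on small counts. Of 8 tested genes of paralog groups 1 to 4, 1 rose and 1 fell. Of 10 tested genes of groups 5 to 8, 3 fell. Of 7 tested genes of groups 9 to 13, none passed the test by edgeR's quasi-likelihood test at adjusted p under 0.05. Calls were 2 of 10 in HOXA, 2 of 7 in HOXB, 1 of 7 in HOXC and 0 of 1 in HOXD, and no difference between these shares was tested. The summed HOX level was 203 and 206 CPM in shSMARCA4 libraries, against 198 and 214 CPM in control libraries, and the groups overlapped. Within that sum the HOXA cluster held 44.5% and 45.3% in shSMARCA4 libraries, against 47.7% and 51.0% in control libraries. The HOXB cluster held 43.6% and 43.7% in shSMARCA4 libraries, against 39.7% and 37.7% in control libraries. Neither share overlapped between the groups, which was also so for the CPM of 65.9% of all genes tested. The shares are parts of 1 sum, so a fall of one and a rise of another are not separate results. HOXC held 11.7% and 10.8% in shSMARCA4 libraries, against 12.3% and 11.02% in control libraries, and overlapped.

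Ratios of paralogs within a library do not depend on scaling between libraries. The log2 ratio of HOXA2 to HOXB2 counts was -1.69 and -1.88 in shSMARCA4 libraries, against -1.14 and -0.89 in control libraries. That of HOXA3 to HOXB3 was 0.48 and 0.43 in shSMARCA4 libraries, against 0.82 and 0.93 in control libraries. That of HOXA4 to HOXB4 was -0.43 and -0.43 in shSMARCA4 libraries, against -0.23 and -0.03 in control libraries. In each of these 3 pairs the HOXA member was lower relative to its HOXB paralog in both shSMARCA4 libraries. The ratio of HOXA7 to HOXB7 was -1.35 and -1.26 in shSMARCA4 libraries, against -1.20 and -1.18 in control libraries, a smaller gap in the same direction. That of HOXA6 to HOXB6 was -2.32 and -1.85 in shSMARCA4 libraries, against -2.20 and -2.31 in control libraries, and overlapped. HOXA5 to HOXB5, both of which fell, overlapped between the groups, with 3.99 and 3.29 in shSMARCA4 libraries, against 3.38 and 3.70 in control libraries. The ratio of HOXA9 to HOXB9, both tested genes, was not taken. These ratios are given without a test, and the pairs share numerator and denominator genes with the fold changes above. With 2 libraries per group, 65.9% of all genes tested did not overlap in CPM, so ratios that do not overlap are not read as a pattern.

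The clusters also held 57 non-coding genes, 28 of them long non-coding RNAs. Of the 57, 15 were tested and 3 fell, 2 of these being long non-coding RNAs, while 15.8% of all genes tested passed as lower. HOTAIRM1, a long non-coding RNA of the HOXA cluster first described in myeloid cells (chr7:27098839-27100139, plus strand), had 4.52 and 5.04 CPM in shSMARCA4 libraries, against 6.34 and 9.11 CPM in control libraries. The control libraries were far apart, and both were above both shSMARCA4 libraries. HOTAIRM1 fell by 0.69 ± 0.18 on the log2 scale (SE; edgeR's quasi-likelihood adjusted p = 0.0173).

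HOXA-AS2, which runs antisense within the span of the counted HOXA3 transcript, had 3.97 and 4.42 CPM in shSMARCA4 libraries, against 5.21 and 6.42 CPM in control libraries. The groups did not overlap. HOXA-AS2 fell by 0.47 ± 0.15 on the log2 scale (SE; edgeR's quasi-likelihood adjusted p = 0.0384), and its log2 fold change was -0.32 without control library 2 (adjusted p = 0.104) and -0.39 without shSMARCA4 library 1 (adjusted p = 0.164). Its call was also lost with library totals alone, DESeq2, no filter and a test against 1.2-fold. Counting without regard to strand gave reads in the 84 bases it shares with HOXA3 to both genes. The other fall was of a short RNA annotated inside HOTAIRM1. HOTAIR, the HOXC transcript known for its link to Polycomb, had 1.07 and 1.05 CPM in shSMARCA4 libraries, against 0.762 and 0.961 CPM in control libraries, and did not pass the test. None of the 8 microRNA genes had enough counts to be tested.

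**Figure D4:**
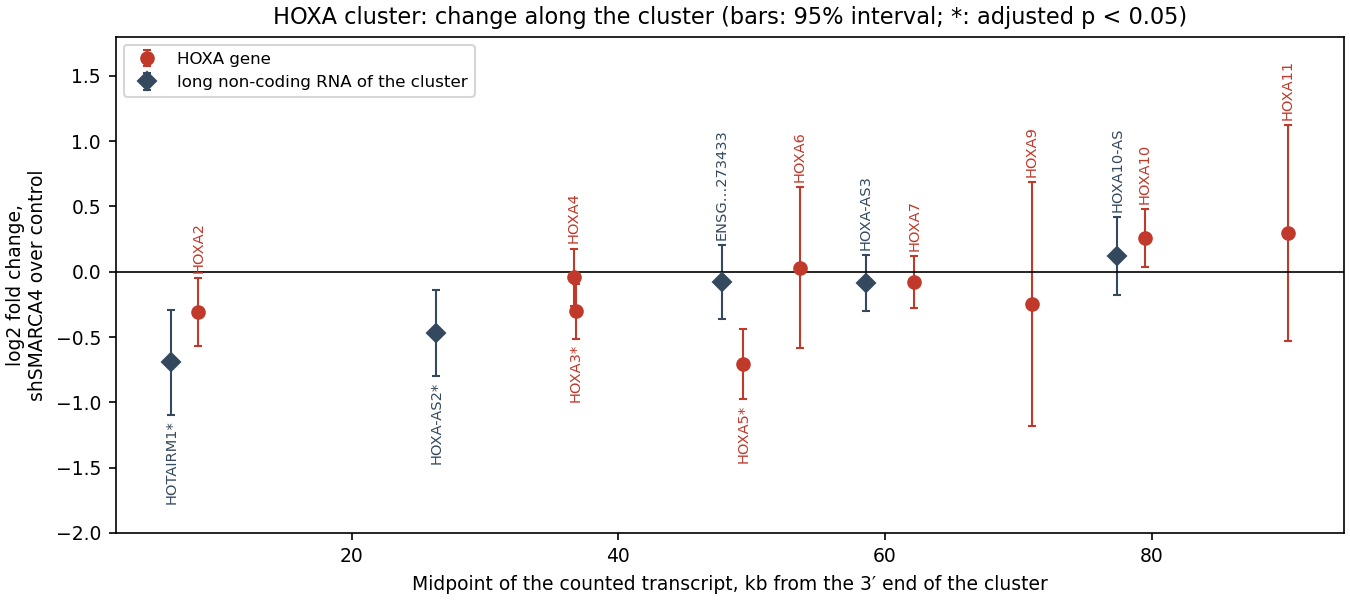
Log2 fold change of shSMARCA4 over control along the HOXA cluster, by the midpoint of the counted transcript in kilobases from the 3′ end of the cluster; red circles are 9 HOXA genes, dark diamonds are long non-coding RNAs, bars are 95% intervals and asterisks mark adjusted p under 0.05. HOTAIRM1 at -0.69, HOXA-AS2 at -0.47, HOXA3 at -0.30 and HOXA5 at -0.71 are the 4 marked points, and HOXA10 is at 0.26 without a mark.

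HOX proteins bind DNA with TALE homeodomain partners of the PBX and MEIS families. The list of 11 TALE genes used here also held TGIF1 and TGIF2, which are of neither family. Of the 11, 10 were tested, with 1 rise and 1 fall, while 13.8% of all genes tested passed as higher and 15.8% as lower. TGIF2, a repressor of TGF-beta and retinoid target genes, had 23.6 and 22.4 CPM in shSMARCA4 libraries, against 19.4 and 18.6 CPM in control libraries. The groups did not overlap, and it rose by 0.28 ± 0.069 on the log2 scale (SE; edgeR's quasi-likelihood adjusted p = 0.0151). Without shSMARCA4 library 1 it was 0.25 (adjusted p = 0.133). PKNOX1, a MEIS relative, had 29.2 and 27.1 CPM in shSMARCA4 libraries, against 32.7 and 32.2 CPM in control libraries. It fell by 0.21 ± 0.061 on the log2 scale (SE; edgeR's quasi-likelihood adjusted p = 0.0327), with log2 fold changes of -0.26 without shSMARCA4 library 1 (adjusted p = 0.0641) and -0.15 without shSMARCA4 library 2 (adjusted p = 0.319). That call was also lost with library totals alone, DESeq2, no filter and a test against 1.2-fold.

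The other tested TALE genes did not pass the test. MEIS2 had 16.9 and 18.3 CPM in shSMARCA4 libraries, against 14.8 and 15.2 CPM in control libraries (log2 fold change 0.23 ± 0.078, SE; edgeR's quasi-likelihood adjusted p = 0.052). It passed without control library 1 (0.22; adjusted p = 0.0408, edgeR's quasi-likelihood test) or control library 2 (0.25; adjusted p = 0.0177), and in 8 of 14 alternatives in all, RLE factors, upper-quartile factors and library totals alone among them. PBX2 had 46.9 and 47.4 CPM in shSMARCA4 libraries, against 38.8 and 45.9 CPM in control libraries, and PBX3 had 46.1 and 42.1 CPM, against 43.6 and 41.5 CPM. MEIS1 had 4.07 and 3.73 CPM in shSMARCA4 libraries, against 3.75 and 3.53 CPM in control libraries. MEIS3 had 9.87 and 11.4 CPM in shSMARCA4 libraries, against 10.2 and 11.3 CPM in control libraries. TGIF1 had 23.5 and 24.9 CPM in shSMARCA4 libraries, against 22.3 and 24.8 CPM in control libraries. These 3 overlapped between the groups, with log2 fold changes between -0.02 and 0.10. PBX4, at 1.55 and 1.81 CPM in shSMARCA4 libraries, against 2.01 and 2.79 CPM in control libraries, had a log2 fold change of -0.51 ± 0.22 (SE). PBX2 passed without control library 2 (0.28; adjusted p = 2.53e-05, edgeR's quasi-likelihood test) and PBX4 without control library 1 (-0.73; adjusted p = 0.00569). PKNOX2 had too few counts for the test.

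Genes known to hold HOX clusters on, the trithorax and MLL-menin group, had 3 rises and 5 falls among 15 tested. That is 8 of 15 past the test, beside 29.7% of all genes tested. In the fit of protein-coding genes alone, 18.4% of genes passed as higher and 19.3% as lower. The share of the list was not tested against these. ASH2L, a core subunit of the MLL methyltransferase complexes, had 25.7 and 26.5 CPM in shSMARCA4 libraries, against 38.3 and 39.05 CPM in control libraries. The groups were well apart, and it fell by 0.57 ± 0.056 on the log2 scale (SE; edgeR's quasi-likelihood adjusted p = 0.000135). DOT1L, the H3K79 methyltransferase, fell by 0.32, AFF4 by 0.22 and PSIP1 by 0.25 on the log2 scale. The 3 rises of the list were of 0.15 to 0.20 on the log2 scale, with WDR5 and KDM6A among them. MEN1, which encodes menin, and KMT2B did not pass the test, at -0.13 and 0.08. The median of the list was -0.06.

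Polycomb genes, known to hold HOX clusters off, had 5 rises and 3 falls among 20 tested. That is 8 of 20 past the test, beside 29.7% of all genes tested. With protein-coding genes alone, 18.4% of genes passed as higher and 19.3% as lower, so 8 of 20 is not read as an excess. SUZ12, a core subunit of PRC2, had 60.9 and 59.2 CPM in shSMARCA4 libraries, against 124 and 113 CPM in control libraries. The groups were far apart, and SUZ12 fell by 0.98 ± 0.055 on the log2 scale (SE; edgeR's quasi-likelihood adjusted p = 9.18e-06). JARID2, an accessory subunit of the same complex, had 48.0 and 44.4 CPM in shSMARCA4 libraries, against 30.03 and 30.9 CPM in control libraries, and rose by 0.60 ± 0.059 on the log2 scale (SE; adjusted p = 0.000131, edgeR's quasi-likelihood test). PHC2 rose by 0.40 and MTF2 by 0.34 on the log2 scale. EZH2 and EED, the other core PRC2 subunits, had log2 fold changes of 0.04 and -0.02 and did not pass the test. The median of the list was 0.01, and its members moved in both directions.

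Retinoic acid is known to switch on 3′ HOX genes, and of 11 tested genes of its pathway 1 fell, beside 15.8% of all genes tested. CRABP2, the carrier that delivers retinoic acid to its receptors, had 2.59 and 3.12 CPM in shSMARCA4 libraries, against 5.55 and 6.04 CPM in control libraries. The groups were far apart, and it fell by 1.02 ± 0.15 on the log2 scale (SE; edgeR's quasi-likelihood adjusted p = 0.000944). The receptors RARA, RARG, RXRA and RXRB had log2 fold changes between -0.23 and 0.005 and did not pass the test. A further receptor that was tested, at under 1 CPM, lay outside this range and did not pass either. The list median was -0.19. CYP26A1, ALDH1A1 and ALDH1A2, enzymes that degrade or make retinoic acid, had too few counts to be tested. Other enzymes of both kinds were expressed highly enough to be tested and did not pass.

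Among 9 tested genes that flank the clusters, 1 rose and 3 fell, or 4 of 9 past the test, beside 29.7% of all genes tested. With protein-coding genes alone, 18.4% of genes passed as higher and 19.3% as lower. CALCOCO1, beyond the 5′ end of HOXC, had 17.8 and 19.6 CPM in shSMARCA4 libraries, against 29.2 and 37.9 CPM in control libraries. Both shSMARCA4 libraries were lower, and it fell by 0.84 ± 0.12 on the log2 scale (SE; edgeR's quasi-likelihood adjusted p = 0.000815). CBX5, the gene of heterochromatin protein HP1-alpha, fell by 0.32, and SKAP2, near HOXA, fell by 0.20. SNX11, near HOXB, rose by 0.35. SKAP2 was -0.20 without shSMARCA4 library 1 (adjusted p = 0.0659, edgeR's quasi-likelihood test) and -0.19 without shSMARCA4 library 2 (adjusted p = 0.0727). EVX1 and EVX2, the homeobox genes at the 5′ ends of HOXA and HOXD, had a count of 0 in each library.

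Of 7 genes of geminin, CTCF and cohesin, which shape chromatin loops or restrain HOX proteins, 3 fell and none rose, beside 15.8% of all genes tested that passed as lower. GMNN, SMC3 and SMC1A fell by 0.18, 0.12 and 0.12 on the log2 scale (edgeR's quasi-likelihood adjusted p = 0.0229, 0.0454 and 0.0407). None of the 3 passed the test without shSMARCA4 library 1 (adjusted p = 0.229, 0.296 and 0.372 in the same order) or without shSMARCA4 library 2 (adjusted p = 0.0631, 0.353 and 0.308), nor with library totals alone, DESeq2, no filter or a test against 1.2-fold. SMC3 and SMC1A also did not pass with RLE factors (adjusted p = 0.0562 and 0.0533, edgeR's quasi-likelihood test) or upper-quartile factors (adjusted p = 0.0659 and 0.0555). CTCF itself had a log2 fold change of 0.10 and did not pass the test. Of 13 ParaHox and other early homeobox genes, such as CDX2 and PDX1, 12 had too few counts to be tested and 7 had a count of 0 in each library. MEOX1 was the tested one and did not pass.

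**Figure D5:**
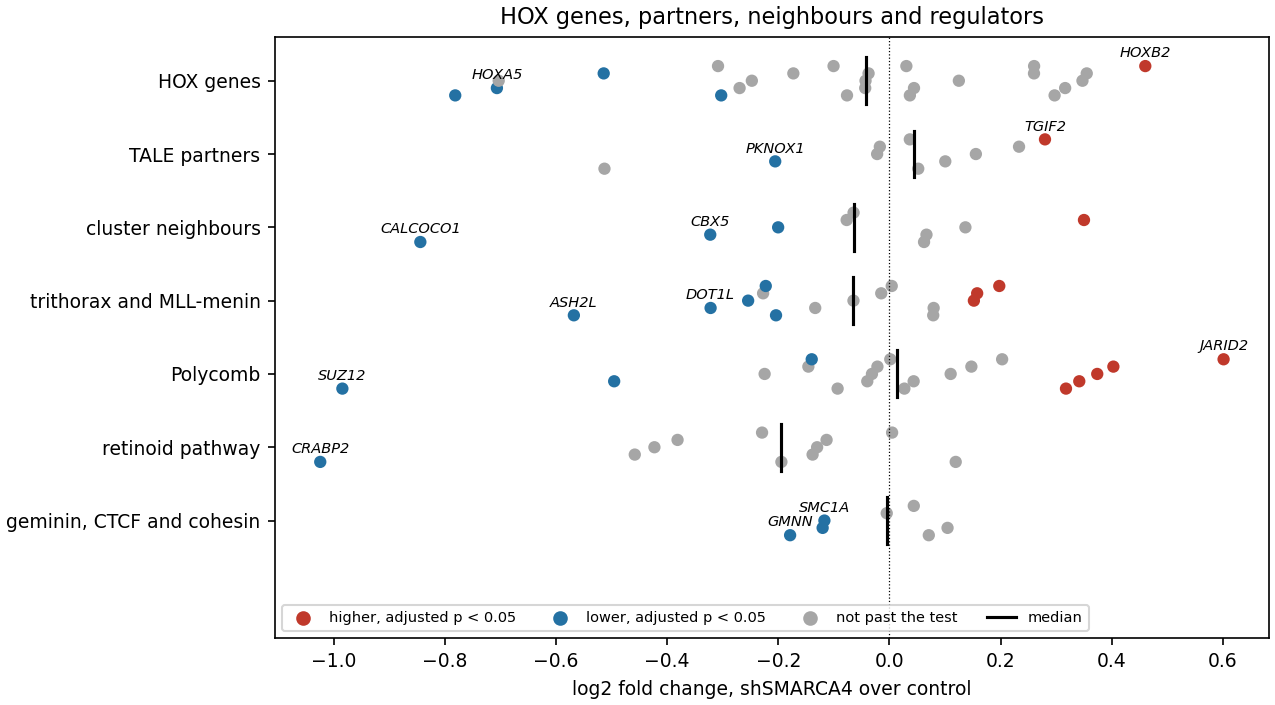
Log2 fold change of shSMARCA4 over control for the tested HOX genes (top row) and 6 lists of partners, neighbours and regulators; each point is a gene, black bars are list medians, and the labels name up to 2 genes per list with the smallest adjusted p. The HOX median lies at -0.04, and SUZ12 at -0.98 and CRABP2 at -1.02 are the farthest points to the left.

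The labelled cell type was set against its markers. PAX8, the Müllerian lineage factor, had 63.2 and 63.5 CPM in shSMARCA4 libraries, against 57.4 and 59.8 CPM in control libraries, and WT1, LHX1, KRT7, KRT8 and KRT18 were present as well, while PAX2 was at 0 and OVGP1, ESR1 and EPCAM were under 1 CPM. The list summed to 1272 and 1274 CPM in shSMARCA4 libraries, against 1862 and 1756 CPM in control libraries, with 3 keratins lower and WT1 higher among 9 tested. KRT7, KRT8 and KRT18 made up most of that sum. Over all genes tested, 13.8% passed as higher and 15.8% as lower. PAX8, WT1 and LHX1 were each higher in both shSMARCA4 libraries, with WT1 alone of them past the test. EPCAM was lower in both without passing, and CDH1 and MUC16 overlapped between the groups. Fibroblast and smooth muscle markers summed to 1783 and 1920 CPM in shSMARCA4 libraries, against 2588 and 2598 CPM in control libraries. COL1A1 made up most of that sum. Of these markers 6 of 6 tested passed as lower, beside 15.8% of all genes tested. LUM had 107 and 109.5 CPM in shSMARCA4 libraries, against 219 and 237 CPM in control libraries, and PDGFRB had 15.2 and 16.7 CPM, against 22.9 and 28.05 CPM. TAGLN and ACTA2 were present as well, while DCN, COL1A2, COL3A1 and DES were under 1 CPM in each library. Ciliated, endothelial and immune lists summed to under 2, under 2 and 23.2 to 25.6 CPM per library, FOXJ1, CDH5 and CD3E were at or near 0, and CD68 held most of the immune sum. The secretory sum, which is mostly keratin, and the fibroblast sum were lower in both shSMARCA4 libraries, and their part in the HOX results was not tested.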

How the data were processed

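Per the labels' protocols, RNA-seq libraries were prepared from total RNA with SMARTer mRNA reagents, and raw counts of 4 libraries, 2 per group, were grouped by their titles. The authors deposited raw counts per gene from HOMER's exon counting on hg38 with GENCODE release 45, per the file header. Its command took reads of either strand, condensed each gene to 1 transcript and left counts unnormalized. It names 6 libraries, and the 4 with value columns were used. Reads were aligned with STAR 2.6.1c, and DESeq2 1.19.38 is also named, per the submitters' processing notes. The deposited length column, the exon bases of the counted transcript, was used to compute RPKM.

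Here filterByExpr, with its minimum count at 10, left 18781 of 63241 genes. The scaling factors were trimmed means of M values, and genes were tested two-sided with no covariate by the quasi-likelihood functions glmQLFit and glmQLFTest of edgeR 4.0.16 in R 4.3.3. P-values were adjusted by Benjamini-Hochberg over all genes tested, with a threshold of 0.05. Each SE was obtained as the size of the log2 fold change over the root of its F, and intervals are 95%. CPM are counts per 1e+06 of the scaled library total. The test was checked on simulated counts. Exon overlaps used GENCODE release 29, and promoter sequences are from RefSeq (GRCh38.p14). Alternatives used limma 3.58.1 and DESeq2 1.42.0. Per-library values are given for HOX genes past the threshold, at a mean of at least 10 CPM or highest in their cluster by RPKM, and for TALE partners tested; other lists name up to 4 members past the threshold with the smallest adjusted p. Names beyond this rule were picked with their values in view. The HOX genes and all lists were chosen with earlier results of these data known. Of the ciliated markers, 1 symbol was not in the table. A few genes are counted with their lists but not reported here individually.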

Additional observations from a re-analysis of the deposited data

How the results depend on the processing

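HOXA5 and HOXB2 kept their direction and passed the test under each of 14 alternatives, and the number of HOX genes detected was 17 to 23 under 6 other limits, against 22. HOX genes called higher numbered 1 in the main analysis, 2 with RLE factors, 3 with upper-quartile factors or protein-coding genes alone, 4 with library totals alone and 1 to 3 with 1 library left out. Those called lower numbered 4, and 1 with no filter, DESeq2 or a test against 1.2-fold, and 1 to 5 with 1 library left out. Over all genes, higher and lower calls numbered 2596 and 2976, against 1403 and 1784 with no filter, 1625 and 1930 with DESeq2, and 642 and 1066 against 1.2-fold, with ranges of 1724 to 3618 and 2077 to 3828 with 1 library left out. Library totals alone gave 59.5% of calls as higher, against 46.6%, and moved the median of all genes to 0.045. Over the partner, neighbour and regulator lists, 10 higher and 19 lower calls became 5 and 7 with no filter, 5 and 10 with DESeq2, 2 and 4 against 1.2-fold, 15 and 11 with library totals alone, and 6 to 14 and 9 to 27 with 1 library left out. The cause of these shifts was not tested.

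The labels do not say what a shared replicate number stands for. Deviations of same-numbered libraries from the group means correlated at 0.0754 over genes, which cannot show whether they shared a culture or batch. A replicate block gave 3187 higher and 3562 lower calls over all genes, 4 and 5 among HOX genes (17% and 19% of all genes tested) and 14 and 22 over the lists.

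The HOX median log2 fold change was -0.043 and ran from -0.095 to 0.004 with 1 library left out, and was 0.005 with library totals alone. Signs turned for genes that did not pass the test in either fit. With library totals alone HOXA4 was 0.005, HOXC9 0.011, HOXC11 0.005 and MEIS3 0.032, and with limma-voom HOXC11 was 0.029. With 1 library left out, ranges were -0.096 to 0.014 for HOXA4, -0.281 to 0.304 for HOXA6, -0.527 to 0.004 for HOXA9, -0.09 to 0.837 for HOXA11, -0.328 to 0.004 for HOXB6, -0.01 to 0.629 for HOXC5, -0.237 to 0.266 for HOXC8, -0.127 to 0.061 for HOXC9, -0.426 to 0.478 for HOXC11, -0.007 to 0.115 for PBX3, -0.125 to 0.093 for MEIS3 and -0.032 to 0.112 for TGIF1. Where 1 library was left out, the lone library of a group was assumed to vary like the other group. Depth limits the 14 HOX genes not tested, which had at most 15 counts in any library, and HOXA9, HOXA11 and HOXD8, whose intervals are the widest of the HOX genes tested.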
